A study of Homo sapiens with 9 samples.

Results

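Interferon-stimulated genes are the genes that a cell switches on when it senses interferon or viral nucleic acid, and 46 of them, taken by gene name, are described here out of the 58395 genes in each table. The list held 47 names, of which DDX58 is the older symbol of RIGI, and all 46 genes were found. The libraries were RNA-seq of HCT116, an established human colon carcinoma line, in which STBD1 had been knocked down by a short hairpin (shSTBD1) in every group, the control included. STBD1 binds glycogen and was studied as a receptor that brings glycogen to autophagy through its LC3-interacting region. Each group had 3 libraries: shSTBD1 cells with the plvx neo vector alone, shSTBD1 cells expressing hairpin-resistant STBD1 WT, and shSTBD1 cells expressing STBD1 W203C, in which the tryptophan of that region is changed to cysteine. All groups are stable derivatives of the same line, libraries with a control hairpin are not analysed here, and the labels name the 3 libraries of a group biological replicates without saying what was kept separate.

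Type I interferon binds the receptor pair IFNAR1 and IFNAR2, whose kinases JAK1 and TYK2 phosphorylate STAT2. STAT2 and IRF9 are subunits of ISGF3, which binds the interferon-stimulated response element in the promoters of these genes, and IRF1 and IRF7 bind related sites. The products include cytosolic RNA sensors, enzymes and membrane proteins that hinder viruses, and ISG15, a ubiquitin-like protein with its own conjugation enzymes, and epithelial cells keep part of the program running at a low level without added interferon.

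Titles of the samples and names of the files disagree on which construct is which. The titles were followed here, and exchanging them would turn round each direction between STBD1 WT and STBD1 W203C and would swap their comparisons with plvx neo. Library totals were 16.9 to 23.3 M expected counts (M, mega). The summed level of STBD1 and the FAM47E-STBD1 read-through, which share reads, was 4.85 ± 0.751 TPM (a length-corrected abundance with the same total in every library; SD, n = 3) in plvx neo, 54.6 ± 2.39 with STBD1 WT and 46.1 ± 2.30 with STBD1 W203C, higher in each library of either construct than in any of plvx neo (exact permutation p = 0.1, two-sided, for each pair of groups, the smallest that 3 against 3 libraries can give). Of the defining markers of colon epithelium, KRT8, KRT18 and EPCAM were abundant, while VIL1 and KRT20 stayed under 1 TPM on average. KRT8 and KRT18 were lower in both constructs than in plvx neo, but not all epithelial markers were. Group means in plvx neo, STBD1 WT and STBD1 W203C were 203.4, 188.0 and 213.2 TPM for EPCAM. They were 19.75, 27.37 and 24.04 TPM for CDH1 and 7.41, 6.19 and 8.81 TPM for CDX2. The summed level of the 7 epithelial markers, most of it KRT8 and KRT18, was 2915 to 2971 TPM in plvx neo, 2208 to 2256 with STBD1 WT and 2249 to 2453 with STBD1 W203C. The 6 leukocyte markers summed to 0.81 to 0.88 TPM, 0.74 to 2.39 and 1.49 to 2.79 in the same order, with PTPRC and CD3E at or near 0, and the 3 plasmacytoid dendritic cell markers to at most 0.81 TPM. The 4 fibroblast markers summed to 13.9 to 16.5 TPM, 16.4 to 21.6 and 12.7 to 18.3 in the same order, nearly all of it COL1A1, with COL1A2, COL3A1 and DCN at or near 0, and the part of any of these markers in the results was not tested. Since the RNA is bulk, fewer cells with a transcript and less transcript per cell cannot be told apart.

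Of the 46 interferon-stimulated genes, 34 (73.9%) had a mean over the 9 libraries of at least 1 TPM, against 13837 of 58395 genes (23.7%) in the whole table. IFITM3, ISG15 and LGALS3BP exceeded 100 TPM, 11 further members lay between 10 and 100 TPM and 20 between 1 and 10 TPM. The 12 members under 1 TPM were OAS1, OAS2, IFIT2, IFIT3, MX1, MX2, RSAD2, CMPK2, IFITM1, BST2, IFI44 and IFI44L, and this group holds several of the antiviral effectors most used as interferon reporters. MX2 had 4 expected counts in all 9 libraries together, RSAD2 had 9 and IFI44L had 1. The filter on low counts left 38 members in STBD1 WT vs plvx neo and 37 in each comparison with STBD1 W203C, with BST2 as the difference, and 8 members were tested in none of the comparisons.

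The promoters of several of these genes carry the interferon-stimulated response element, and examples that hold a match are shown. They were picked for the match, and IFITM3 among them was called in no comparison. RIGI, HERC6 and IFI35, called at least 1.5-fold higher in a comparison below, had no match in the window searched and are not shown. The RefSeq promoter table (GRCh38.p14, from 250 bases before to 50 bases after the start site) held 38 of the 46 members, and not IRF7, DHX58, OAS2, OASL, IFIT2, MX2, IFITM2 and USP18. The letters GAAANNGAAA, searched on both strands, were found in 25 of these 38 promoters (65.8%) and in 996 of all 27305 (3.65%). The gamma-activated site TTCNNNGAA, a palindrome that STAT dimers bind, was found in 10 of 38 (26.3%) and in 2152 of all promoters (7.88%). In a few promoters, such as those of BST2 and IFI27, matches to the different motifs overlap. Capitals mark each match to the response element that lies whole in the stretch shown, which reads TTTCNNTTTC where it lies on the other strand, and all lines are written 5′ to 3′ on the strand of the gene. For ISG15 (chr1:1013247-1013496, plus strand) and IFI6 (chr1:27672193-27672442, minus strand) the 250 bases before the start site are given, and for the others a motif with 20 bases on each side: IFIH1 (chr2:162318814-162318863, minus), OAS3 (chr12:112938311-112938360, plus), IFIT1 (chr10:89392487-89392536, plus), IFIT3 (chr10:89327855-89327904, plus), ISG20 (chr15:88638927-88638976, plus), SAMD9 (chr7:93118086-93118135, minus), LGALS3BP (chr17:78979952-78980001, minus) and IFITM3 (chr11:320866-320915, minus).
ISG15: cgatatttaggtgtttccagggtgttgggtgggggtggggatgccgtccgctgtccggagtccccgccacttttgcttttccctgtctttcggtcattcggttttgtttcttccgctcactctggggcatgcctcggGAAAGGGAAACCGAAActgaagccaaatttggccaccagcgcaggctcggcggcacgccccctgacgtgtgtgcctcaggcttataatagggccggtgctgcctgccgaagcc
IFI6: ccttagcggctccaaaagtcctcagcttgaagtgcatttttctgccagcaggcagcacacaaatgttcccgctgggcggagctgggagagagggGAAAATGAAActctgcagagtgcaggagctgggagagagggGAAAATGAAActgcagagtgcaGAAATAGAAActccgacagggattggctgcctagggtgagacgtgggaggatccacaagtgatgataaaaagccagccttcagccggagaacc
IFIH1: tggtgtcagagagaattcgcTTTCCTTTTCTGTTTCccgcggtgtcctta
OAS3: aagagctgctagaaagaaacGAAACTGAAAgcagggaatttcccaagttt
IFIT1: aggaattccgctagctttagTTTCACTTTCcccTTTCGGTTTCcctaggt
IFIT3: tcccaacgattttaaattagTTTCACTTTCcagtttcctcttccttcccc
ISG20: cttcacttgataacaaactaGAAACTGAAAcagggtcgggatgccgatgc
SAMD9: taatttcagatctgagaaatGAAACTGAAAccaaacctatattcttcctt
LGALS3BP: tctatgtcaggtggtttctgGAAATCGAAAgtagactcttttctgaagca
IFITM3: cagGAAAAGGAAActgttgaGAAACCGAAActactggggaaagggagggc

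ISG15 and IFIH1 show 2 overlapping matches in 1 run of capitals, IFIT1 and IFITM3 show 2 separate ones and IFI6 shows 3. Across the members 44 matches were counted, 37 of them wholly before the start site, and 15 members had at least 2. Matches that overlap were counted separately, so these are not numbers of separate elements. The map of motif positions shows them between 164 bases before the start site and a short distance after it. The response element was found in 14 of the 24 members with a promoter in the table that were called in any comparison below, in 7 of the 8 that were tested and called in none, and in 4 of the 6 that were tested in none. These shares are a description of the letters in this window, and no test was made on them.

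**Figure D1:**
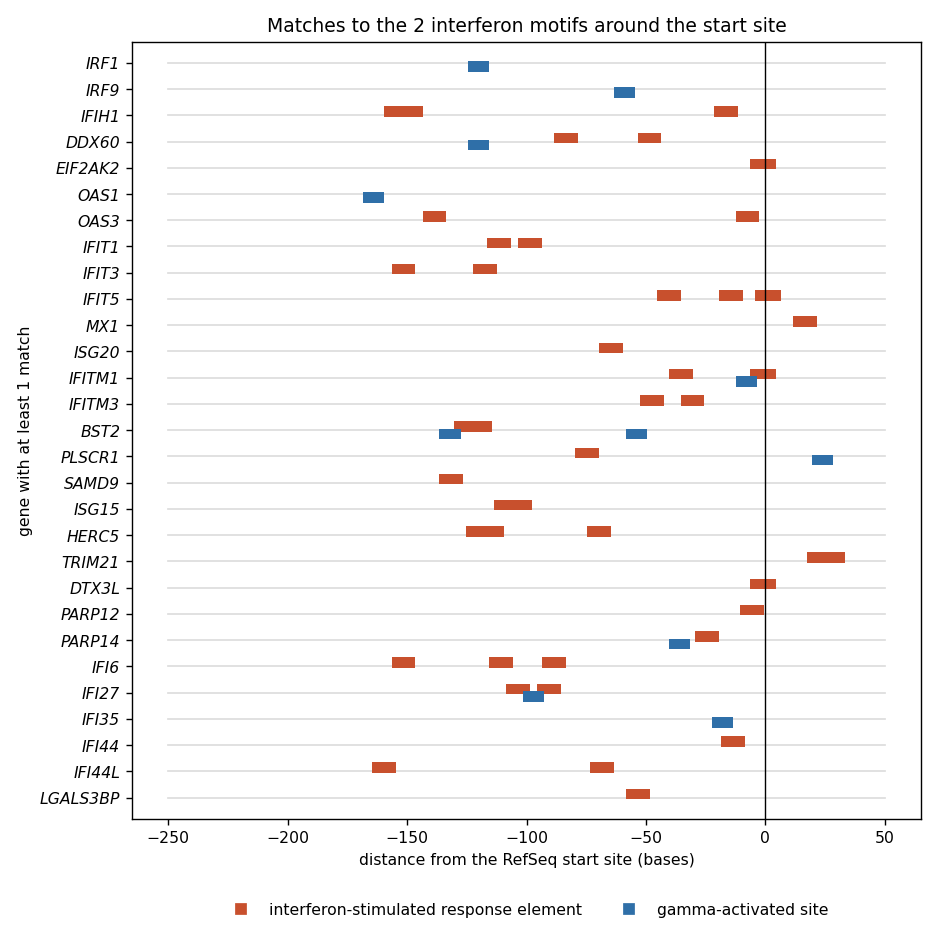
Positions of matches to the interferon-stimulated response element (orange) and the gamma-activated site (blue) from 250 bases before to 50 after the RefSeq start site, 1 line per member with at least 1 match. Most matches to the response element lie within the stretch from 164 bases upstream to the start site. IFI6, IFIH1, IFIT5 and HERC5 hold 3 each, overlapping matches counted separately.

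Many members were higher in STBD1 WT than in plvx neo. Among the 38 members tested in STBD1 WT vs plvx neo, 22 were higher and 0 were lower (adjusted p below 0.05 in edgeR's quasi-likelihood test, by Benjamini-Hochberg over all genes tested). The percent called among all 15289 genes tested was 27.8, with 13.9% higher and 13.9% lower, so the calls of all genes at this threshold were evenly split while those of the members were not. Because the members were chosen with earlier results of these data known, this contrast is a description only. The median log2 fold change was 0.34 over the tested members and 0.0061 over all genes, and 31 of 38 members had a positive value. In TPM, 23 of the tested members had all STBD1 WT libraries above all plvx neo libraries and 0 had all below, where 15.6% and 15.7% of all genes did. At least 1.5-fold higher were 12 of the 38 and 0 were lower, where 3.05% of all genes were higher by that much and 0.491% lower, so that all genes leaned the same way at this size. The 12 were led by IFIT2, IFIT3, RIGI, ISG20 and IFI6, of which IFIT2 and IFIT3 had means under 1 TPM. A correction for GC content and length gave 22 members higher and 2 lower, the latter being TRIM25 and IFITM3, while among all genes it moved the split of the calls from 50% to 32.8% higher. Limma on log2(TPM + 1) gave 18 members higher and 0 lower, and did not call STAT2, IFIT3, TRIM21, PARP9 and PARP14.

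STBD1 W203C lay below STBD1 WT for many of the members. In STBD1 W203C vs STBD1 WT 14 of 37 tested members were lower and 2, TRIM25 and EIF2AK2, were higher, where the percent called among all 15052 genes was 27.9, with 14.5% higher and 13.4% lower. The median log2 fold change was -0.17 over the members and -0.0078 over all genes, and 31 of 37 members had a negative value. In TPM, 15 tested members had all STBD1 W203C libraries below all STBD1 WT libraries and 5 had all above, where 11.8% and 21.3% of all genes did. IFIT1, ISG20 and IFI6 were lower by at least 1.5-fold and 0 members were higher, where 2.8% of all genes were lower and 0.326% higher by that much, a lean to the same side. DESeq2 gave 10 calls here instead of 16, 9 of them lower, and limma on log2(TPM + 1) gave 5, of which 3 were lower. Limma did not call STAT2, IRF7, IRF9, RIGI, IFIH1, IFIT1, SAMD9, HERC6, IFI35, SP110 and LGALS3BP. In the gene paragraphs below, losses under limma are mostly not repeated. Upper-quartile factors gave 17 lower and 1 higher.

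The mutant was also compared with the vector. In STBD1 W203C vs plvx neo 8 of 37 tested members were higher and 0 were lower, where the percent called among all 15081 genes was 5.7, with 3.03% higher and 2.67% lower. These were IRF1, RIGI, IFIH1, OAS3, ISG15, TRIM25, DTX3L and PARP12, and RIGI and OAS3 passed 1.5-fold (0.358% of all genes were higher and 0.332% lower by that much). The median log2 fold change was 0.15 over the members and -0.0031 over all genes. In TPM, 17 tested members had all STBD1 W203C libraries above all plvx neo libraries and 3 had all below, where 14.7% and 5.48% of all genes did. Without plvx neo replicate 3, or without STBD1 W203C replicate 1, 5 members were called, and limma on log2(TPM + 1) called 2. The calls that limma did not make were those of IRF1, RIGI, IFIH1, TRIM25, DTX3L and PARP12. The 3 comparisons share libraries pairwise, so their values stand side by side and are not independent of one another.

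**Figure D2:**
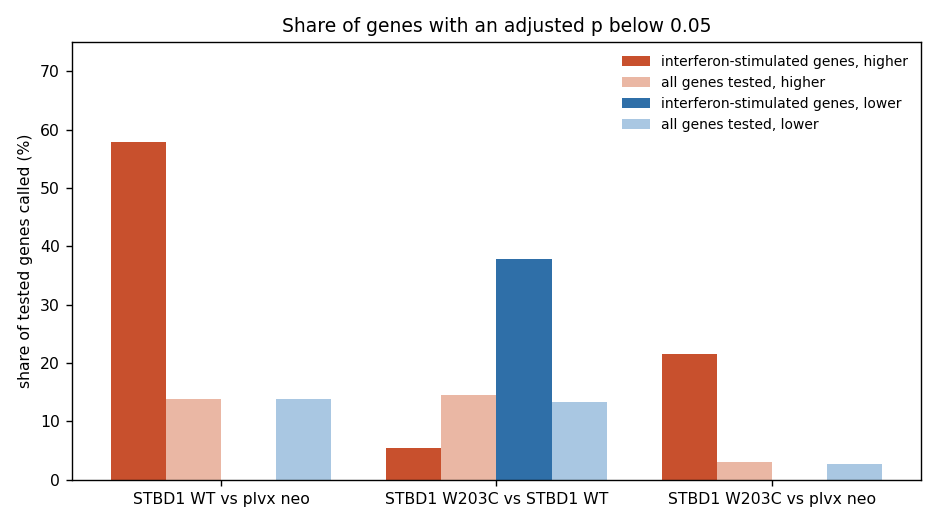
Share of tested genes with an edgeR adjusted p below 0.05, in percent, for the interferon-stimulated genes (dark bars) and all genes tested (pale bars), split into higher (orange) and lower (blue), for each comparison. For STBD1 WT against plvx neo, 57.9% of members were higher beside 13.9% of all genes, and no bar is drawn where no member was called lower.

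Group means followed 1 order more than any other. Of the 34 members with a mean of at least 1 TPM, 20 (58.8%) had their lowest group mean in plvx neo, an intermediate one in STBD1 W203C and the highest in STBD1 WT, an order seen in 2772 of 13837 genes at that level (20%). The summed level of all 46 members was 922, 911 and 933 TPM in the plvx neo libraries, 1148, 1129.7 and 1140.1 in STBD1 WT and 1024, 995 and 1037 in STBD1 W203C. No library of a group reached into the range of another, and without IFITM3, ISG15 and LGALS3BP the sums were 319 ± 13.9, 392 ± 3.72 and 361 ± 15.3 TPM (SD, n = 3), with the groups again apart. Levels in TPM and the tests, which used counts, pointed to opposite sides for 3, 3 and 4 tested members in the 3 comparisons in the order above, none of them called.

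**Figure D3:**
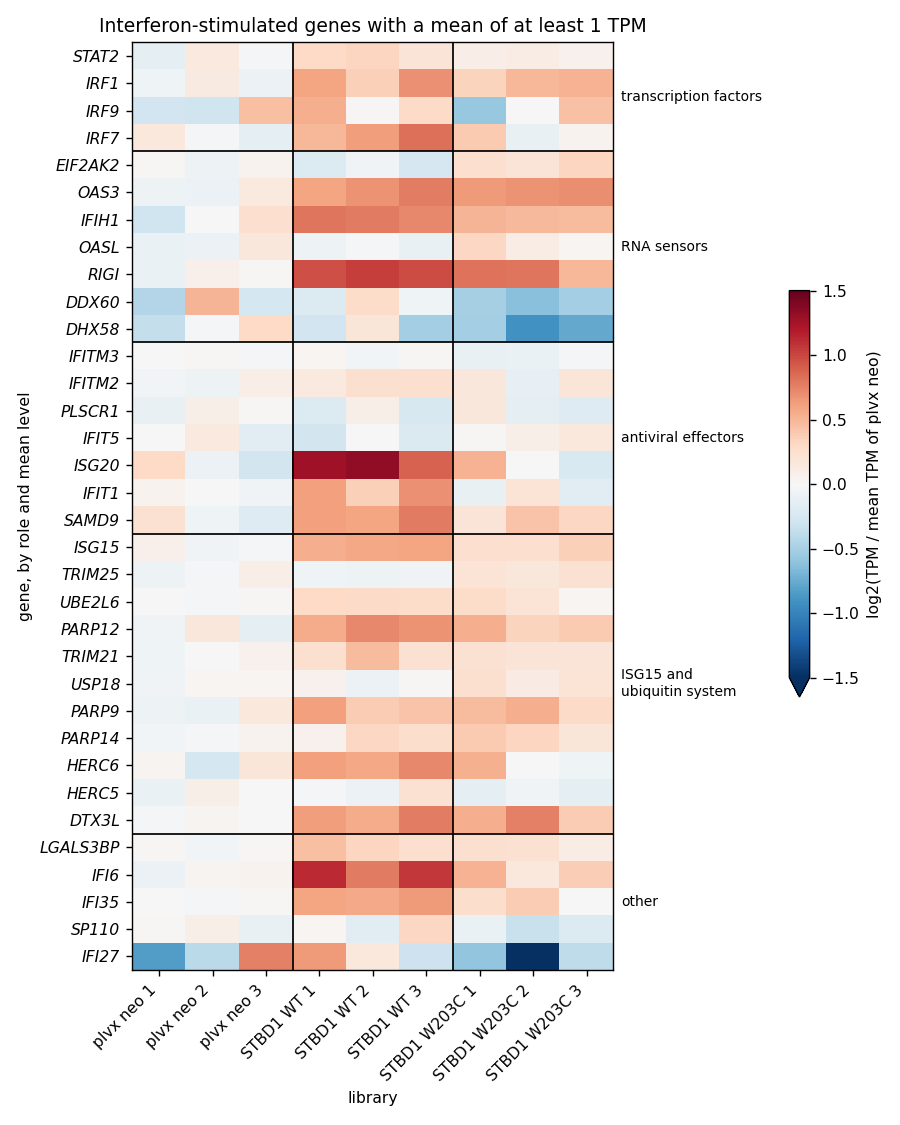
Level of each member with a mean of at least 1 TPM in each of the 9 libraries, as log2 of its TPM over the mean TPM of plvx neo (red higher, blue lower), with members ordered by role and mean level. STBD1 WT columns are red for most members, STBD1 W203C columns are paler, and IFI27, DHX58 and DDX60 vary within groups. The IFI27 value of STBD1 W203C replicate 2 lies past the lower end of the colour scale.

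The transcription factors come first among the roles. All 4 were expressed, 3 were higher in STBD1 WT than in plvx neo, and 3 were lower in STBD1 W203C than in STBD1 WT. Of all genes tested, 13.9% were higher in the first comparison and 13.4% lower in the second. IRF7, the factor that amplifies interferon transcription (ENSG00000185507, chr11:612553-615983, minus strand), measured 5.07, 4.47 and 4.09 TPM in plvx neo, 6.41, 6.99 and 8.06 with STBD1 WT and 5.94, 4.22 and 4.70 with STBD1 W203C. STBD1 WT stood above both other groups without overlap, and those groups overlapped each other. Its log2 fold change was 0.58 (SE 0.132, edgeR adjusted p = 0.00267) in STBD1 WT vs plvx neo, -0.55 (SE 0.131, edgeR adjusted p = 0.00286) in STBD1 W203C vs STBD1 WT and 0.017 (SE 0.151, edgeR adjusted p = 0.974) in STBD1 W203C vs plvx neo. The call between the constructs was not made by limma.

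IRF1, which binds the response element without STATs, showed another pattern. Its levels were 11.2, 12.9 and 11.0 TPM in plvx neo, 17.7, 15 and 18.9 with STBD1 WT and 14.8, 16.6 and 16.8 with STBD1 W203C. Both constructs were above plvx neo in each library and overlapped each other. IRF1 was higher by a log2 fold change of 0.43 in STBD1 WT (edgeR adjusted p = 0.000865) and 0.32 in STBD1 W203C (edgeR adjusted p = 0.0188) than in plvx neo, and the call for STBD1 W203C was lost when plvx neo replicate 3 or any STBD1 W203C library was left out. The difference between the constructs was -0.11 with an SE of 0.0811 (edgeR adjusted p = 0.361).

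STAT2, a subunit of ISGF3, differed little. Its levels were 15.7, 19.1 and 17.0 TPM in plvx neo, 21.2, 21.6 and 19.7 with STBD1 WT and 18.5, 18.6 and 18.0 with STBD1 W203C. The STBD1 WT libraries were the highest of the 9, by a small margin over plvx neo replicate 2. The log2 fold changes of 0.17 against plvx neo (edgeR adjusted p = 0.0467) and -0.17 in STBD1 W203C vs STBD1 WT (edgeR adjusted p = 0.0328) were not called by DESeq2, by limma, without the filter on low counts or under the GC and length correction. The first was also lost without plvx neo replicate 1 or 3 or any STBD1 WT library, and the second without any STBD1 WT library or STBD1 W203C replicate 1 or 3. IRF9, the DNA-binding subunit of ISGF3, measured 5.56, 5.52 and 9.21 TPM in plvx neo, 9.85, 6.84 and 8.26 with STBD1 WT and 4.57, 6.72 and 9.20 with STBD1 W203C. Its groups overlapped throughout, although the count test called it lower in STBD1 W203C than in STBD1 WT with a log2 fold change of -0.49 (SE 0.141, edgeR adjusted p = 0.0127), a call lost without STBD1 WT replicate 3 or STBD1 W203C replicate 1. A read-through gene on the same strand overlaps IRF9, so its level is uncertain.

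Among the RNA sensors, 3 of 7 tested members were higher in STBD1 WT than in plvx neo and the same number were higher in STBD1 W203C than in plvx neo. In both comparisons they were RIGI, IFIH1 and OAS3. Of all genes tested, 13.9% were higher in the first of these comparisons and 3.03% in the second. RIGI, the receptor for short RNA with a 5′ triphosphate (ENSG00000107201, chr9:32455302-32526208, minus strand), measured 1.51, 1.70 and 1.64 TPM in plvx neo, 3.15, 3.33 and 3.18 with STBD1 WT and 2.85, 2.82 and 2.29 with STBD1 W203C. All 3 groups were apart, with STBD1 W203C nearer to STBD1 WT. The fold change was 2.01 in STBD1 WT vs plvx neo (log2 1.01, SE 0.106, edgeR adjusted p = 5.94e-07), 0.798 in STBD1 W203C vs STBD1 WT (log2 -0.33, SE 0.103, edgeR adjusted p = 0.0221) and 1.60 in STBD1 W203C vs plvx neo (log2 0.68, SE 0.122, edgeR adjusted p = 0.000994). The call between the constructs was not made by DESeq2 and was lost without STBD1 WT replicate 2 or STBD1 W203C replicate 3. RIGI is not among the members with a match to GAAANNGAAA in this window.

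IFIH1 encodes MDA5, the receptor for long double-stranded RNA. It measured 2.46, 3.03 and 3.60 TPM in plvx neo, 5.27, 5.19 and 5.01 with STBD1 WT and 4.32, 4.26 and 4.21 with STBD1 W203C. The groups did not overlap, and the spread was widest in plvx neo. The log2 fold changes were 0.76 (edgeR adjusted p = 2.65e-05), -0.30 (edgeR adjusted p = 0.0142) and 0.46 (edgeR adjusted p = 0.0189) for STBD1 WT over plvx neo, STBD1 W203C over STBD1 WT and the mutant over plvx neo. DESeq2 did not call the difference between the constructs, which was also lost without STBD1 W203C replicate 2, and the last call was lost without plvx neo replicate 1 or 2 or STBD1 W203C replicate 1.

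OAS3, which makes the 2′-5′ oligoadenylate that activates RNase L (ENSG00000111331, chr12:112938051-112976460, plus strand), was higher in both constructs than in the vector. Its levels were 11.3, 11.1 and 13.1 TPM in plvx neo, 17.9, 18.9 and 20.2 with STBD1 WT and 18.5, 18.9 and 19.2 with STBD1 W203C. Every construct library exceeded every plvx neo library. The log2 fold change from plvx neo was 0.71 (SE 0.0483, edgeR adjusted p = 1.43e-09) in STBD1 WT and 0.63 (SE 0.0494, edgeR adjusted p = 5.88e-09) in STBD1 W203C. The constructs differed by -0.071 on the log2 scale with an SE of 0.0472 (edgeR adjusted p = 0.285), which does not show that they were equal.

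The other sensors did not follow. EIF2AK2 encodes PKR, the RNA-activated kinase that halts translation. It measured 18.4, 17.2 and 18.9 TPM in plvx neo, 15.7, 17.6 and 15.3 with STBD1 WT and 21.6, 20.8 and 22.6 with STBD1 W203C, so the mutant libraries were the highest of the 9. The count test called it higher in STBD1 W203C than in STBD1 WT by a log2 fold change of 0.13 (SE 0.0462, edgeR adjusted p = 0.0359), a call that DESeq2 did not make. That call was lost under upper-quartile factors, without the filter on low counts and without STBD1 WT replicate 2 or 3 or STBD1 W203C replicate 1 or 2. With replicate number as a block, alone or beside the GC and length correction, it was lost too. GPATCH11 overlaps EIF2AK2 on the opposite strand. DDX60, DHX58 and OASL, with means of 1.87, 1.31 and 3.21 TPM, were called in no comparison. DHX58 measured 1.11, 0.840 and 0.930 TPM in STBD1 W203C beside 1.23 to 1.95 in plvx neo and had a log2 fold change of -0.75 with an SE of 0.372 there (edgeR adjusted p = 0.275). OAS1 and OAS2 stayed under 1 TPM in each library.

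**Figure D4:**
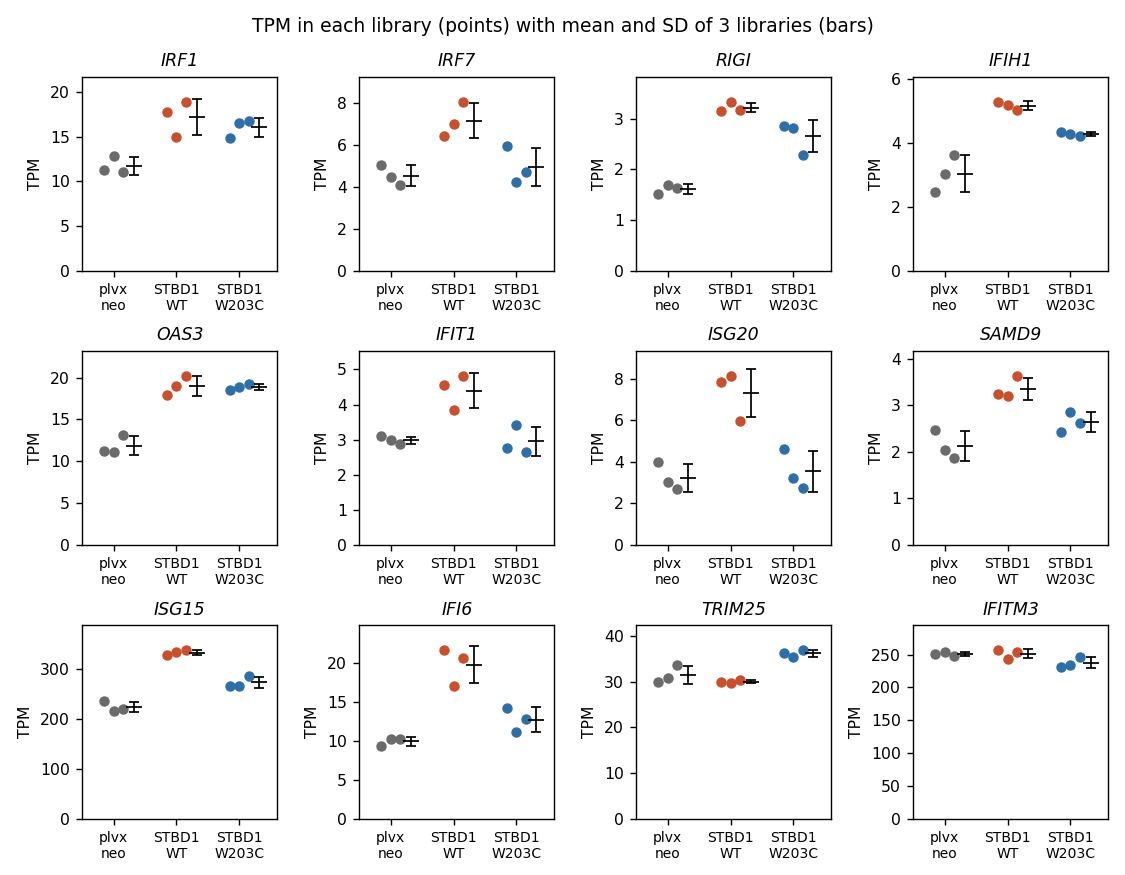
TPM of 12 members in each library (points) with the mean and SD of the 3 libraries of each group (black bars), on axes that start at 0. RIGI, IFIH1, ISG15 and IFI6 form 3 separate groups with plvx neo lowest, IRF7, IFIT1 and ISG20 are raised in STBD1 WT, OAS3 is raised in both constructs, TRIM25 is highest in STBD1 W203C, and IFITM3 lies between 232 and 256 TPM.

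The antiviral effectors were the group with the most silent members. Of 15, 11 were tested in STBD1 WT vs plvx neo, and 5 of these were higher: IFIT1, IFIT2, IFIT3, ISG20 and SAMD9. Of all genes tested there, 13.9% were higher. In STBD1 W203C vs STBD1 WT 3 of 10 were lower, beside 13.4% of all genes. In STBD1 W203C vs plvx neo 0 of 10 were called by edgeR, although 4 had an unadjusted p below 0.05, as did 19.3% of all genes. Only 5.7% of all genes were called in that comparison, so 0 of 10 does not set the effectors apart. DESeq2 called 0 of these effectors as well. ISG20, an exonuclease that degrades RNA (ENSG00000172183, chr15:88635670-88656483, plus strand), measured 3.98, 3.04 and 2.68 TPM in plvx neo, 7.83, 8.12 and 5.98 with STBD1 WT and 4.63, 3.24 and 2.75 with STBD1 W203C. Its STBD1 WT libraries lay above all others, while plvx neo and STBD1 W203C overlapped. It was 2.00-fold higher in STBD1 WT than in plvx neo (log2 1.00, SE 0.172, edgeR adjusted p = 0.00019) and 0.616 times as high in STBD1 W203C as in STBD1 WT (log2 -0.70, SE 0.159, edgeR adjusted p = 0.00223), and STBD1 W203C and plvx neo differed by 0.30 with an SE of 0.202 (edgeR adjusted p = 0.46).

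The IFIT proteins bind viral RNA that lacks the host cap marks. IFIT1 (ENSG00000185745, chr10:89392546-89406487, plus strand) measured 3.09, 2.98 and 2.88 TPM in plvx neo, 4.56, 3.83 and 4.81 with STBD1 WT and 2.76, 3.43 and 2.65 with STBD1 W203C. STBD1 WT was again alone above the others. Its log2 fold change was 0.57 (SE 0.139, edgeR adjusted p = 0.00426) in STBD1 WT vs plvx neo, -0.63 (SE 0.152, edgeR adjusted p = 0.00369) in STBD1 W203C vs STBD1 WT and -0.062 (SE 0.162, edgeR adjusted p = 0.894) in STBD1 W203C vs plvx neo. Limma did not make the call between the constructs. IFIT2 had the highest log2 fold change of the tested members in STBD1 WT vs plvx neo, 1.73 (SE 0.320, edgeR adjusted p = 0.000399), at low levels of 0.170, 0.210 and 0.200 TPM in plvx neo, 0.680, 0.610 and 0.620 with STBD1 WT and 0.370, 0.630 and 0.310 with STBD1 W203C. Its STBD1 W203C libraries lay above plvx neo and reached into STBD1 WT, with a log2 fold change from plvx neo of 1.14 that was not called (SE 0.376, edgeR adjusted p = 0.0783).

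IFIT3 measured 0.280, 0.530 and 0.570 TPM in plvx neo, 1.20, 0.80 and 0.900 with STBD1 WT and 0.900, 0.560 and 0.870 with STBD1 W203C. STBD1 WT was above plvx neo without overlap by a log2 fold change of 1.06 (SE 0.313, edgeR adjusted p = 0.0155), and that call was lost without plvx neo replicate 1 or STBD1 WT replicate 1. IFIT5 behaved differently, with 4.76 to 5.78 TPM in STBD1 WT beside 5.15 to 6.37 in plvx neo, and was not called in any comparison. IFIT1, IFIT2 and IFIT3 lie opposite LIPA, a gene at 21.1 TPM, and the counting was not stated to use strand, so reads from the stretches they share cannot be told apart.

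SAMD9, which restricts poxviruses, measured 2.48, 2.03 and 1.86 TPM in plvx neo, 3.25, 3.20 and 3.63 with STBD1 WT and 2.42, 2.85 and 2.63 with STBD1 W203C. The STBD1 WT libraries were the highest, and the other groups overlapped. The log2 fold changes were 0.66 (edgeR adjusted p = 5.32e-05) in STBD1 WT vs plvx neo and -0.39 (edgeR adjusted p = 0.00116) in STBD1 W203C vs STBD1 WT, the latter not called by limma. IFITM3, the membrane protein that blocks entry of enveloped viruses and one of the 3 most abundant members, measured 250.2, 253 and 248 TPM in plvx neo, 256, 244 and 254 with STBD1 WT and 232, 234 and 247 with STBD1 W203C. It was called in none of the comparisons although its promoter holds 2 matches to the response element, and its log2 fold changes were -0.018, -0.10 and -0.13, with SEs of 0.0403, 0.0412 and 0.0419. IFITM2, its close paralog at a mean of 94.1 TPM, may share reads with it and was not called. PLSCR1, at 17.3 TPM, was not called either.

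Members under the filter can still be described by their values. MX1, the dynamin-like GTPase that blocks influenza virus, measured 0.050, 0.120 and 0.120 TPM in plvx neo, 0.280, 0.210 and 0.240 with STBD1 WT and 0.160, 0.820 and 0.220 with STBD1 W203C, from 60 expected counts in all. IFI44 measured 0.320, 0 and 0 TPM in plvx neo, 0.560, 0.640 and 0.820 with STBD1 WT and 0.250, 0 and 0.0700 with STBD1 W203C, from 24 expected counts. In both genes the STBD1 WT libraries exceeded every plvx neo library. OAS1 did so too, at 0.210 to 0.720 TPM beside 0.0900 to 0.200. In OAS2 and IFITM1 these groups overlapped. RSAD2, a radical SAM enzyme that makes a chain-terminating nucleotide, measured 0.0200, 0.220 and 0.0200 TPM in plvx neo and 0 in each STBD1 WT library. With STBD1 WT it lay below every plvx neo library, from 9 expected counts in all, too few to give a direction. The share of all genes under the filter whose groups stand apart was not computed. No direction is therefore read from the TPM of MX1, IFI44 and OAS1 either. Without the filter on low counts, edgeR called 1 of the 7 such members it could test in STBD1 WT vs plvx neo, IFI44, as higher (edgeR adjusted p = 0.0326), and none of the 9 in either comparison with STBD1 W203C, where the smallest adjusted p was 0.0929, for IFI44 in STBD1 W203C vs STBD1 WT. The edgeR adjusted p in STBD1 WT vs plvx neo was 0.464 for MX1, 0.377 for OAS1 and 0.324 for RSAD2. MX2 and IFI44L were at or near 0 in all groups.

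ISG15 and the ubiquitin-related members numbered 11, and all were tested. Of these, 8 were higher in STBD1 WT than in plvx neo, 2 were lower and 1 higher in STBD1 W203C than in STBD1 WT, and 4 were higher in STBD1 W203C than in plvx neo. The matching shares of all genes were 13.9%, 13.4%, 14.5% and 3.03%. ISG15 (ENSG00000187608, chr1:1001138-1014540, plus strand), whose promoter with its overlapping matches to the response element is printed above, measured 235, 216 and 221 TPM in plvx neo, 328, 334 and 338 with STBD1 WT and 267, 267 and 287 with STBD1 W203C. The groups were well apart, with STBD1 W203C between the others. The fold change was 1.45 in STBD1 WT vs plvx neo (log2 0.54, SE 0.0466, edgeR adjusted p = 4.21e-08), 0.810 in STBD1 W203C vs STBD1 WT (log2 -0.30, SE 0.0406, edgeR adjusted p = 1.02e-05) and 1.17 in STBD1 W203C vs plvx neo (log2 0.23, SE 0.050, edgeR adjusted p = 0.00534). The last call was lost without plvx neo replicate 3.

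The conjugation enzymes of ISG15 did not all move with it. HERC6, a relative of the ligase HERC5, measured 3.21, 2.6 and 3.55 TPM in plvx neo, 4.77, 4.65 and 5.15 with STBD1 WT and 4.53, 3.10 and 2.99 with STBD1 W203C, so STBD1 WT was highest and STBD1 W203C replicate 1 stood nearer to it than the other two did. Its log2 fold change was 0.61 in STBD1 WT vs plvx neo (edgeR adjusted p = 0.000263) and -0.32 in STBD1 W203C vs STBD1 WT (edgeR adjusted p = 0.0207), the latter not called by DESeq2 and lost without STBD1 WT replicate 2 or 3 or STBD1 W203C replicate 2 or 3. UBE2L6, the conjugating enzyme, was 16.3 to 16.8 TPM in plvx neo and 20.1 to 20.5 in STBD1 WT, a log2 fold change of 0.26 (edgeR adjusted p = 0.0106). HERC5, the main human ligase for ISG15, and USP18, the protease that removes ISG15, had log2 fold changes of 0.024 (SE 0.101) and -0.0038 (SE 0.0996) in the same comparison and were not called in any. TRIM21, a cytosolic antibody receptor, was higher by a log2 fold change of 0.32 (edgeR adjusted p = 0.0123), a call lost without STBD1 WT replicate 2.

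DTX3L and PARP9 form a ligase and ADP-ribosyltransferase pair and are transcribed away from each other from overlapping starts. DTX3L measured 2.08, 2.19 and 2.12 TPM in plvx neo, 3.28, 3.13 and 3.63 with STBD1 WT and 3.10, 3.60 and 2.78 with STBD1 W203C. PARP9 measured 3.31, 3.26 and 3.89 TPM, then 5.33, 4.53 and 4.70, then 4.84, 5.09 and 4.25 in the same group order. Both genes were above plvx neo in every construct library, and the constructs overlapped. The log2 fold changes in STBD1 WT vs plvx neo were 0.65 for DTX3L (edgeR adjusted p = 1.04e-05) and 0.48 for PARP9 (edgeR adjusted p = 0.000267), and in STBD1 W203C vs plvx neo 0.53 for DTX3L (edgeR adjusted p = 0.00112) and 0.26 for PARP9 (edgeR adjusted p = 0.11). By limma, neither the PARP9 call in STBD1 WT nor the DTX3L call in STBD1 W203C was made. Reads of this pair cannot be told apart where the genes overlap.

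PARP12, an ADP-ribosyltransferase that inhibits alphaviruses, measured 8.23, 9.62 and 7.82 TPM in plvx neo, 12.6, 14.1 and 13.7 with STBD1 WT and 12.5, 10.8 and 11.2 with STBD1 W203C. The groups did not overlap in TPM. It was higher than in plvx neo by a log2 fold change of 0.65 in STBD1 WT (edgeR adjusted p = 2.12e-06) and 0.55 in STBD1 W203C (edgeR adjusted p = 9.79e-05), and the count test did not call a difference between the constructs (-0.091, SE 0.0736). The call for STBD1 W203C was not made by limma. PARP14, of the same family, measured 3.52, 3.56 and 3.75 TPM in plvx neo, 3.78, 4.48 and 4.33 with STBD1 WT and 4.74, 4.50 and 4.10 with STBD1 W203C. Both constructs again lay above plvx neo, and PARP14 was called in STBD1 WT vs plvx neo alone of the 3 (log2 fold change 0.29, edgeR adjusted p = 0.00846), a call lost without plvx neo replicate 3 or STBD1 WT replicate 2.

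TRIM25, the ligase that ubiquitinates RIGI (ENSG00000121060, chr17:56836387-56914080, minus strand), was higher in the mutant. It measured 29.9, 30.7 and 33.6 TPM in plvx neo, 30.0, 29.8 and 30.3 with STBD1 WT and 36.3, 35.4 and 36.9 with STBD1 W203C. The STBD1 W203C libraries were the highest of the 9, and the other groups overlapped. The log2 fold change was 0.20 in STBD1 W203C vs STBD1 WT (SE 0.0382, edgeR adjusted p = 0.000473) and 0.14 in STBD1 W203C vs plvx neo (SE 0.0397, edgeR adjusted p = 0.0444), the latter lost under upper-quartile factors, without the filter on low counts, by limma and on leaving out any 1 of the 6 libraries. In STBD1 WT vs plvx neo it was -0.059 (SE 0.0392, edgeR adjusted p = 0.291), and -0.11 with a call of lower under the GC and length correction.

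Of the remaining 7 members 5 were tested, 3 of them were higher in STBD1 WT than in plvx neo, and 4 were lower in STBD1 W203C than in STBD1 WT. The matching shares of all genes were 13.9% and 13.4%. IFI6, a mitochondrial and endoplasmic reticulum protein that limits cell death and flavivirus replication (ENSG00000126709, chr1:27666064-27672212, minus strand), has 3 matches to the response element in the stretch printed above. It measured 9.34, 10.2 and 10.3 TPM in plvx neo, 21.6, 17.1 and 20.7 with STBD1 WT and 14.3, 11.1 and 12.9 with STBD1 W203C. The 3 groups did not overlap. The fold change was 1.95 in STBD1 WT vs plvx neo (log2 0.97, SE 0.122, edgeR adjusted p = 6.63e-06), 0.638 in STBD1 W203C vs STBD1 WT (log2 -0.65, SE 0.126, edgeR adjusted p = 0.000567) and 1.24 in STBD1 W203C vs plvx neo (log2 0.31, SE 0.140, edgeR adjusted p = 0.216), the last not called.

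LGALS3BP, a secreted glycoprotein that binds galectin-3, was the other member above 100 TPM. Its levels were 129.8, 125 and 130.0 TPM in plvx neo, 176, 161 and 153 with STBD1 WT and 151, 149.8 and 139 with STBD1 W203C, and the groups did not overlap. The log2 fold change was 0.31 (edgeR adjusted p = 4e-06), -0.19 (edgeR adjusted p = 0.00066) and 0.12 (edgeR adjusted p = 0.066) for STBD1 WT over plvx neo, STBD1 W203C over STBD1 WT and the mutant over plvx neo, and the second call was lost under the GC and length correction. IFI35, which binds NMI, measured 9.10, 8.96 and 9.18 TPM in plvx neo, 13.7, 13.4 and 14.1 with STBD1 WT and 10.9, 11.8 and 9.15 with STBD1 W203C. STBD1 WT was above both other groups, which overlapped at STBD1 W203C replicate 3. Its log2 fold change was 0.62 (edgeR adjusted p = 0.000213) in STBD1 WT vs plvx neo and -0.35 (edgeR adjusted p = 0.0163) in STBD1 W203C vs STBD1 WT, a call also lost under the GC and length correction and without STBD1 WT replicate 1 or STBD1 W203C replicate 3. SP110, a nuclear body protein, was lower in STBD1 W203C than in STBD1 WT (log2 fold change -0.37, edgeR adjusted p = 0.0229) with overlapping libraries, a call that DESeq2 did not make and that was lost without STBD1 WT replicate 1 or 3 or STBD1 W203C replicate 2, and IFI27 ranged from 0.770 to 5.46 TPM over the 9 libraries and was not called.

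**Figure D5:**
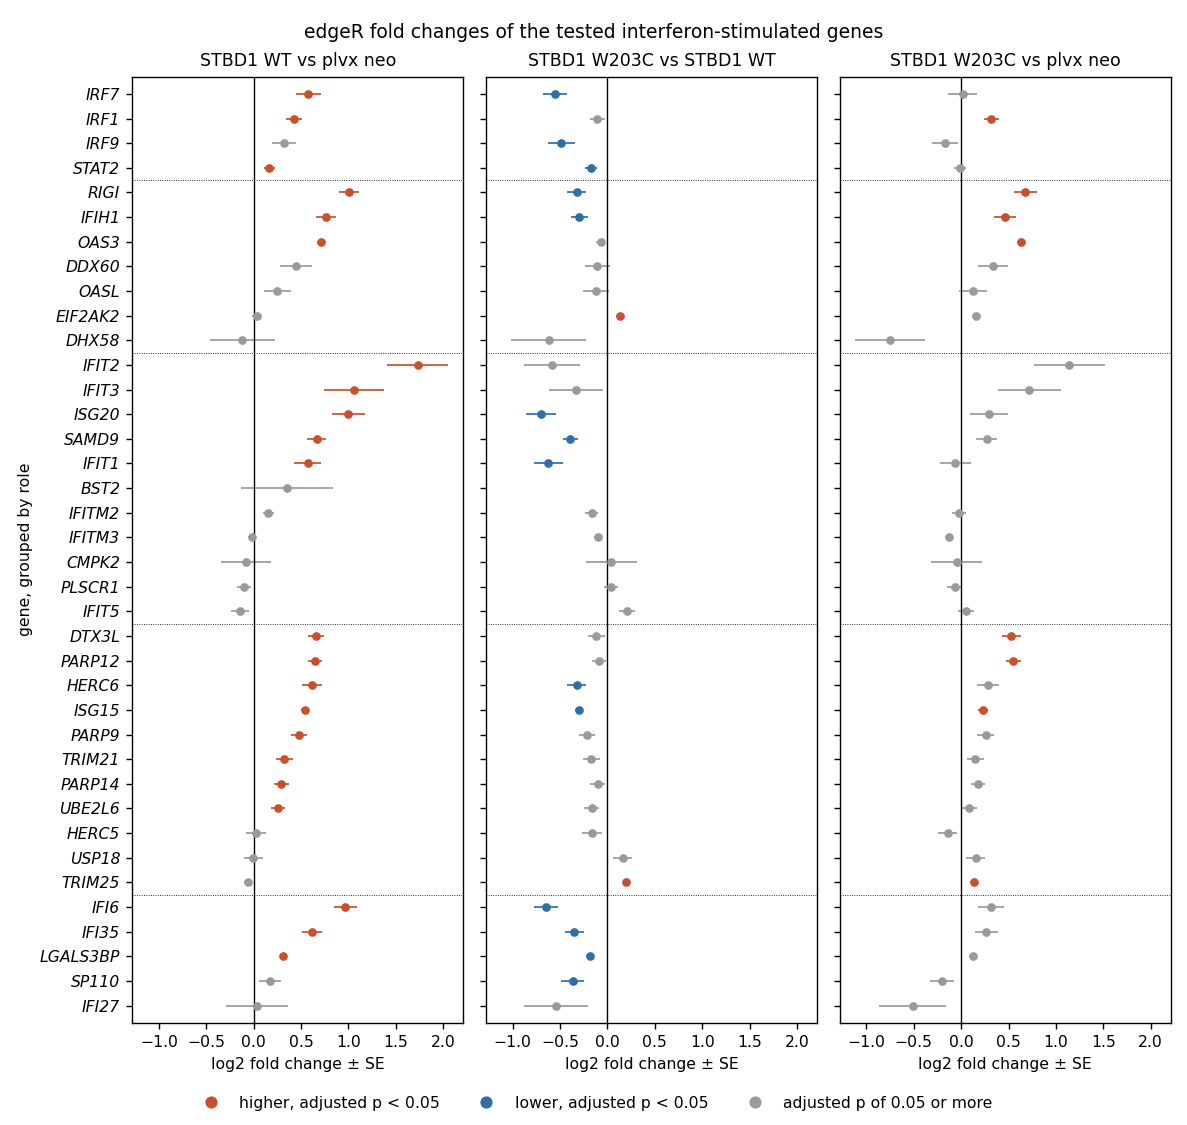
log2 fold change with its SE from edgeR for the 38 members tested in STBD1 WT vs plvx neo, grouped by role, in the 3 comparisons (orange higher, blue lower, grey not called). Points lie to the right of 0 for 31 members in the first panel and to the left for 31 of 37 in the second, and TRIM25 and EIF2AK2 are the orange points of the second panel.

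The rest of the interferon pathway was read from a list of 62 genes, of which 39 had a mean of at least 1 TPM. All 10 interferon ligands were below the filter, with at most 5 expected counts over the 9 libraries except for IFNE, an epithelial type I interferon, which had 57. IFNE measured 0.220, 0.0400 and 0.230 TPM in plvx neo, 0.200, 0.290 and 0.050 with STBD1 WT and 0.520, 0.260 and 0.820 with STBD1 W203C, so the mutant libraries lay above plvx neo and overlapped STBD1 WT. The type I receptor chains and their kinase JAK1 were not called: the log2 fold changes of IFNAR1, IFNAR2 and JAK1 in STBD1 WT vs plvx neo were -0.094, -0.13 and 0.030, with SEs of 0.0573, 0.101 and 0.0526, and the other comparisons gave no call either. TYK2 was higher in STBD1 WT than in plvx neo by a log2 fold change of 0.23 (edgeR adjusted p = 0.00117), with overlapping TPM and no call under the GC and length correction.

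Of the 62 genes, 18 of 43 tested were higher and 2 lower in STBD1 WT vs plvx neo, 3 of 41 were higher and 10 lower in STBD1 W203C vs STBD1 WT, and 5 of 41 were higher and 0 lower in STBD1 W203C vs plvx neo. Over all genes the shares higher and lower were 13.9% and 13.9%, 14.5% and 13.4%, and 3.03% and 2.67%. The medians of the tested list were 0.12, -0.10 and 0.080 on the log2 scale, beside 0.0061, -0.0078 and -0.0031 over all genes. Limma on log2(TPM + 1) called 7, 2 and 2 genes in these comparisons. Among the calls it did not make were those of TYK2, SOCS1 and TRIM22 in STBD1 WT vs plvx neo. In STBD1 W203C vs STBD1 WT they included STING1, TICAM1, SOCS1 and TAP1, and in STBD1 W203C vs plvx neo TICAM1, IFNGR2 and ADAR. The 5 higher in the mutant than in the vector, named after their values were seen, were IFNGR2, TICAM1, ADAR, TAP1 and PSMB9, and the GC and length correction raised the number to 8. The IFNGR2 call was lost without plvx neo replicate 1 or 3 or any STBD1 W203C library, and the ADAR call without plvx neo replicate 3.

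The list holds 12 upstream sensors and adaptors, of which 10 were tested and 5 were higher in STBD1 WT than in plvx neo, where 13.9% of all genes were. STING1, the adaptor of cytosolic DNA sensing, measured 6.55, 7.74 and 8.22 TPM in plvx neo, 13.0, 14.5 and 10.4 with STBD1 WT and 8.44, 10.6 and 8.13 with STBD1 W203C, with log2 fold changes of 0.70 in STBD1 WT vs plvx neo (edgeR adjusted p = 2.15e-05) and -0.58 in STBD1 W203C vs STBD1 WT (edgeR adjusted p = 0.000233). Its partner CGAS had 10 expected counts in all 9 libraries. TICAM1, the adaptor of the endosomal RNA receptor TLR3, measured 13.7, 15.2 and 15.5 TPM in plvx neo, 22.1, 22.3 and 22.4 with STBD1 WT and 19.2, 21.5 and 20.3 with STBD1 W203C. Every construct library was above plvx neo, by a log2 fold change of 0.59 in STBD1 WT (edgeR adjusted p = 1.48e-07) and 0.42 in STBD1 W203C (edgeR adjusted p = 8.65e-05). TLR3 was higher in STBD1 WT, at 1.07 to 1.26 TPM, than in plvx neo, at 0.540 to 0.730 TPM (log2 fold change 1.19, edgeR adjusted p = 0.00436), a call lost without STBD1 WT replicate 2. IKBKE, a kinase that activates IRF3 and IRF7, was higher by 0.64 on the log2 scale (edgeR adjusted p = 0.000679).

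SOCS1, the feedback inhibitor of JAK kinases, measured 2.6, 3.61 and 3.66 TPM in plvx neo, 5.05, 4.50 and 5.45 with STBD1 WT and 3.31, 4.06 and 2.57 with STBD1 W203C, with STBD1 WT above the rest. Its log2 fold change was 0.60 (edgeR adjusted p = 0.0163) against plvx neo, lost under the GC and length correction and without plvx neo replicate 1 or STBD1 WT replicate 1 or 3, and -0.66 (edgeR adjusted p = 0.0128) in STBD1 W203C vs STBD1 WT, lost without STBD1 WT replicate 3 or STBD1 W203C replicate 3. TRIM22, an antiviral ligase, was at 0.327 TPM on average, and its call in STBD1 WT vs plvx neo (log2 fold change 1.54, edgeR adjusted p = 0.0345) was not made by DESeq2 or without plvx neo replicate 1 or 2 or any STBD1 WT library. The antigen presentation genes TAP1, the peptide transporter, and PSMB9, an immunoproteasome subunit, also respond to interferon. PSMB9 measured 5.53, 4.57 and 6.09 TPM in plvx neo, 15.6, 16.2 and 12.5 with STBD1 WT and 9.32, 8.93 and 9.98 with STBD1 W203C, 3 groups without overlap. Its log2 fold changes of 1.44, -0.67 and 0.76 for STBD1 WT over plvx neo, STBD1 W203C over STBD1 WT and the mutant over plvx neo were each called, the last lost without plvx neo replicate 2. TAP1 had log2 fold changes of 0.63, -0.17 and 0.46 in the same comparisons, each called, the second lost under the GC and length correction. In the annotation used, TAP1 lies within the span of PSMB9 on the opposite strand. Strand use was not stated, so reads from stretches they share may not be told apart. The same limit holds for SOCS1, which lies opposite RMI2 at 12.6 TPM, and for TRIM22, opposite TRIM5 at 7.18 TPM.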

How the data were processed

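Per the labels and the study's methods, the authors prepared libraries with the NEBNext Ultra kit, aligned read pairs to hg38 with STAR 2.7.1a and quantified genes with RSEM 1.3.1. The deposited tables hold RSEM expected counts, which divide shared reads among transcripts, and TPM, corrected for transcript length by RSEM. The authors' FPKM, also deposited from RSEM, were not used. Strand use was not stated.

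Expected counts were rounded, filtered (filterByExpr), TMM-normalised and fitted by edgeR 4.0.16 quasi-likelihood (limma 3.58.1, DESeq2 1.42.0 and R 4.3.3 for alternatives) on the 6 libraries of each comparison, two-sided, with Benjamini-Hochberg adjustment and a threshold of 0.05. SE is the absolute log2 fold change over the square root of F. The common biological coefficient of variation was 4.05% to 4.21%, and replicates differed beyond sampling noise (chi-square per gene 2.12 to 3.87), so p-values measure the spread between these libraries. Whether the libraries of a group came from separate infections was not stated. An effect of a construct and a difference between derived lines therefore cannot be told apart. The fits were tested on simulated data. Symbols matched 57754 of 58395 genes (98.9%). Gene coordinates are from the GENCODE 44 annotation, and all 2822 RefSeq promoters of chromosome 1 matched the hg38 sequence.

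The members and lists were chosen with earlier results of these data known. Named members were the 4 transcription factors, those called at 1.5-fold or more, then by smallest adjusted p up to 20, and the 3 most abundant. Other names are given where a count is small or a role is described. 1 gene of the pathway list is not reported here by name.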

Additional observations from a re-analysis of the deposited data

How the results depend on the processing

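Of 1695 values recomputed for named genes, 1538 kept their side of the threshold, 141 fell below it and 16 newly passed it. Where either value was called, 0 changed direction. Direction was not compared where neither value was called. The count of members called in STBD1 WT vs plvx neo stayed within 1.5 times of 22 except for the 12 that also passed 1.5-fold, and leaving out 1 library at a time gave 20 to 23. Members called in STBD1 W203C vs STBD1 WT numbered 10 by DESeq2, 5 by limma with either pseudocount (1 or 0.1) and 3 at 1.5-fold, with 11 to 14 on leaving out 1 library. In STBD1 W203C vs plvx neo they numbered 2 by limma with either pseudocount and 2 at 1.5-fold, with 5 to 8 on leaving out 1 library. For the 62 other pathway genes, limma with pseudocounts of 1 and 0.1 gave 7 and 6 in STBD1 WT vs plvx neo (8 at 1.5-fold, 14 to 18 leaving out 1 library), 2 and 2 in STBD1 W203C vs STBD1 WT (2 at 1.5-fold, 10 to 13) and 2 and 2 in STBD1 W203C vs plvx neo (1 at 1.5-fold, 3 to 6, the lowest without plvx neo replicate 3). In the last comparison the GC and length correction gave 8, also with the replicate block. Among all genes, limma gave 1751 and 1749 (541 at 1.5-fold, 3317 to 3794 leaving out 1 library), 1828 and 1807 (471, 3307 to 3618) and 131 and 115 (104, 459 to 818) in the 3 comparisons. In STBD1 W203C vs plvx neo the all-gene count was 459 without plvx neo replicate 3, 501 without STBD1 W203C replicate 1 and 543 without STBD1 W203C replicate 2. The share of all-gene calls that were higher moved from 51.8% to 69.3% under the GC and length correction, 68.8% under limma and 40.7% under upper-quartile factors in STBD1 W203C vs STBD1 WT, and from 53.2% to 74.0% under limma in STBD1 W203C vs plvx neo. A minimum of 5 TPM counted 20 members as expressed, and leaving out libraries gave 34 each time. The cause of these changes was not tested beyond what each setting leaves out.

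The replicate numbers are shared between groups, but same-numbered libraries did not deviate together (r from -0.0124 to 0.0677 across genes), so they were not taken as pairs. With a replicate block 23, 15 and 9 members were called in the 3 comparisons, 20, 11 and 7 pathway genes and 4400, 3662 and 1003 of all genes. The 8 members that the filter left out of all comparisons had 1 to 68.6 expected counts in the 9 libraries together. Without the filter 45, 46 and 46 members were tested and 23, 14 and 7 were called, 21, 14 and 7 of them also called with it.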
